A study of Homo sapiens with 2 samples.

Results

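The genes described here are the annotated small noncoding RNA genes with nanopore direct RNA reads in GM12878, a human lymphoblastoid line, that is, B cells immortalised by Epstein-Barr virus. They are the annotated genes whose symbol begins with SNORD, SNORA, SCARNA, RNU, RN7S or MIR, leaving out symbols that end in HG (host genes) or contain -AS. The rule found 202 genes among the 16645 annotated genes with a read, or 1.21%. Both libraries belong to 1 group, replicates 1 and 2 of untreated GM12878 as far as the labels say. The labels name no treatment and no batch, and nothing says that the replicates came from separate cultures. The p-values set the difference between these libraries against counting error only, and estimate no spread between libraries or cultures. RNA was extracted on columns and depleted before library preparation, and the labels do not say of what it was depleted.

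C/D box small nucleolar RNAs (snoRNAs, SNORD) guide 2′-O-methylation of ribosomal RNA, and H/ACA box snoRNAs (SNORA) guide its pseudouridylation. A few snoRNAs, such as U3 and U8, act instead in the cleavage of the ribosomal RNA precursor. Small Cajal body RNAs (SCARNA) guide the same modifications in spliceosomal RNAs, the RNU genes encode mostly those spliceosomal RNAs, also the U7 RNA of histone mRNA processing, and many pseudogene copies, and the RN7S genes encode the RNA of the signal recognition particle, the 7SK RNA and their copies. MicroRNA (miRNA) genes encode hairpins, which are cut out of longer transcripts and trimmed to the mature strands that repress mRNAs. In humans most snoRNAs and many miRNAs lie inside other genes. The mature RNAs of these classes mostly lack a poly(A) tail, which the standard direct RNA adapter uses as its starting point.

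The replicates held 1360368 and 1510998 reads, so that 1 read was worth 0.735 and 0.662 CPM, the usual count scaled to library depth. CD79A, MS4A1, PAX5 and CD74, which mark B cells, all had reads, with means from 43.0 CPM to 7927 CPM. Of the markers of other lineages, ALB, HBG1 and GATA1 were listed in neither library, COL1A1 had 2 and 3 reads, and the T cell gene CD3E had 5 and 16 reads.

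The members on which the results turn are shown by sequence, because the most-read miRNA genes share theirs with abundant mRNAs. Of the 78 miRNA genes, 73 matched the RefSeq table (GRCh38.p14) by symbol and 71 had a mature sequence there. Capitals mark the seed, bases 2 to 8, which pairs with target mRNAs. No 2 of these strands shared a seed. MiR-1244, encoded by 4 of the genes, and miR-3654 come from the genes with the most reads. MiR-4751 comes from a hairpin inside the coding region of ATF5, and miR-142 and miR-155 are well-studied miRNAs of blood cells.
hsa-miR-1244: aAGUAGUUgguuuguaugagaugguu
hsa-miR-3654: gACUGGACaagcugaggaa
hsa-miR-4751: aGAGGACCcguagcugcuagaagg
hsa-miR-142-5p: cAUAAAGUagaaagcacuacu
hsa-miR-142-3p: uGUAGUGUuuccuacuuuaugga
hsa-miR-155-5p: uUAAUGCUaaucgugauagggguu
hsa-miR-155-3p: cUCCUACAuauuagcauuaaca

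For snoRNAs the box motifs were searched on the RNA strand only, in the shortest annotated transcript of each gene (GENCODE release 29, GRCh38). The letters were TGATGA for the C box and CTGA within the last 30 bases for the D box of C/D RNAs, and ACA placed 3 bases before the 3′ end for H/ACA RNAs. Both C/D motifs were present in 29 of 39 SNORD genes (74.4%), against 0.549% of windows of 84 bases at the starts of all annotated transcripts. The ACA triplet was present in 34 of 44 SNORA genes (77.3%), against 1.53% of such windows of 133 bases. A match is a description of the letters only. In the sequences below, capitals mark TGATGA and the last CTGA in the C/D RNAs, and the ACA triplet in the others. SNORD3A is the U3 snoRNA gene with the most reads, SNORD104 is a short C/D RNA in an intron, SNORA48, SNORA70 and SNORA9 are the 3 most-read H/ACA genes, and SCARNA22 is a Cajal body RNA.
SNORD3A-203 (chr17:19188016-19188232, plus strand): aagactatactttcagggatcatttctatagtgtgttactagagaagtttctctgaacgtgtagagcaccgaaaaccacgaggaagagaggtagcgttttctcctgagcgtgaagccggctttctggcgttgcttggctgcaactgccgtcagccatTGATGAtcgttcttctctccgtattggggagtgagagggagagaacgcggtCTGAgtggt
SNORD104-201 (chr17:64146083-64146152, plus strand): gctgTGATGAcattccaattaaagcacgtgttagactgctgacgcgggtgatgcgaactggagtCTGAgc
SNORA48-201 (chr17:7574713-7574847, plus strand): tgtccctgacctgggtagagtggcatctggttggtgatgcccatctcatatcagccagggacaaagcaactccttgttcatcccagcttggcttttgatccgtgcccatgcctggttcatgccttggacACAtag
SNORA70-201 (chrX:154400281-154400415, plus strand): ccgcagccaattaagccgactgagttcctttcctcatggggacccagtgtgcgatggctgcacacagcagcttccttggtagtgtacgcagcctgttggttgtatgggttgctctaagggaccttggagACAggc
SNORA9-201 (chr7:44985378-44985510, minus strand): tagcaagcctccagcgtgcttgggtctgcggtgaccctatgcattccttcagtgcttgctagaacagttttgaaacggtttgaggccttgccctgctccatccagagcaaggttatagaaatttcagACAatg
SCARNA22-201 (chr4:1974636-1974760, plus strand): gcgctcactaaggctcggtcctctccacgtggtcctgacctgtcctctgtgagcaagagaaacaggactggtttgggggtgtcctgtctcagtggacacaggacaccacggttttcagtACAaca

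Small RNA genes took a very small part of each library, and miRNA genes took most of it. The 202 genes had 1128 reads in replicate 1, 0.0829% of the library (95% Wilson interval 0.0782 to 0.0879%), and 2321 reads in replicate 2, 0.154% (0.147 to 0.160%). The mean was 0.118% ± 0.04998 (SD, n = 2), and the share in replicate 2 was 1.85 times that in replicate 1. The 78 miRNA genes had 934 and 1821 reads, the 44 SNORA genes 81 and 163 reads, and the 39 SNORD genes 45 and 235 reads. The 20 RNU genes had 33 and 42 reads, the 12 SCARNA genes 23 and 33 reads, and the 9 RN7S genes 12 and 27 reads. Each class had a higher CPM in replicate 2, from 1.15 times for the RNU genes to 4.70 times for the SNORD genes. Wilson intervals of the libraries did not overlap for the MIR, SNORA and SNORD classes, and they overlapped for the RNU, SCARNA and RN7S classes. Intervals cover counting error only. In these bulk libraries, fewer cells with an RNA and less of it per cell cannot be told apart.

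Reads were concentrated in few genes. MIR1244-2, MIR3654 and MIR7705 together held 59.8% of the 3449 reads of the classes. The median gene had 2 reads, 83 genes had a single read, and 36 had at least 10 reads over both libraries. Of the genes in GENCODE 29 that fit the name rule, the table listed 48.0% for SCARNA (12 of 25), 29.9% for SNORA (44 of 147) and 14.0% for SNORD (39 of 278). The corresponding shares were 4.15% for MIR (78 of 1880), 1.11% for RNU (20 of 1809) and 0.924% for RN7S (9 of 974), and the other genes were not analysed here.

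**Figure D1:**
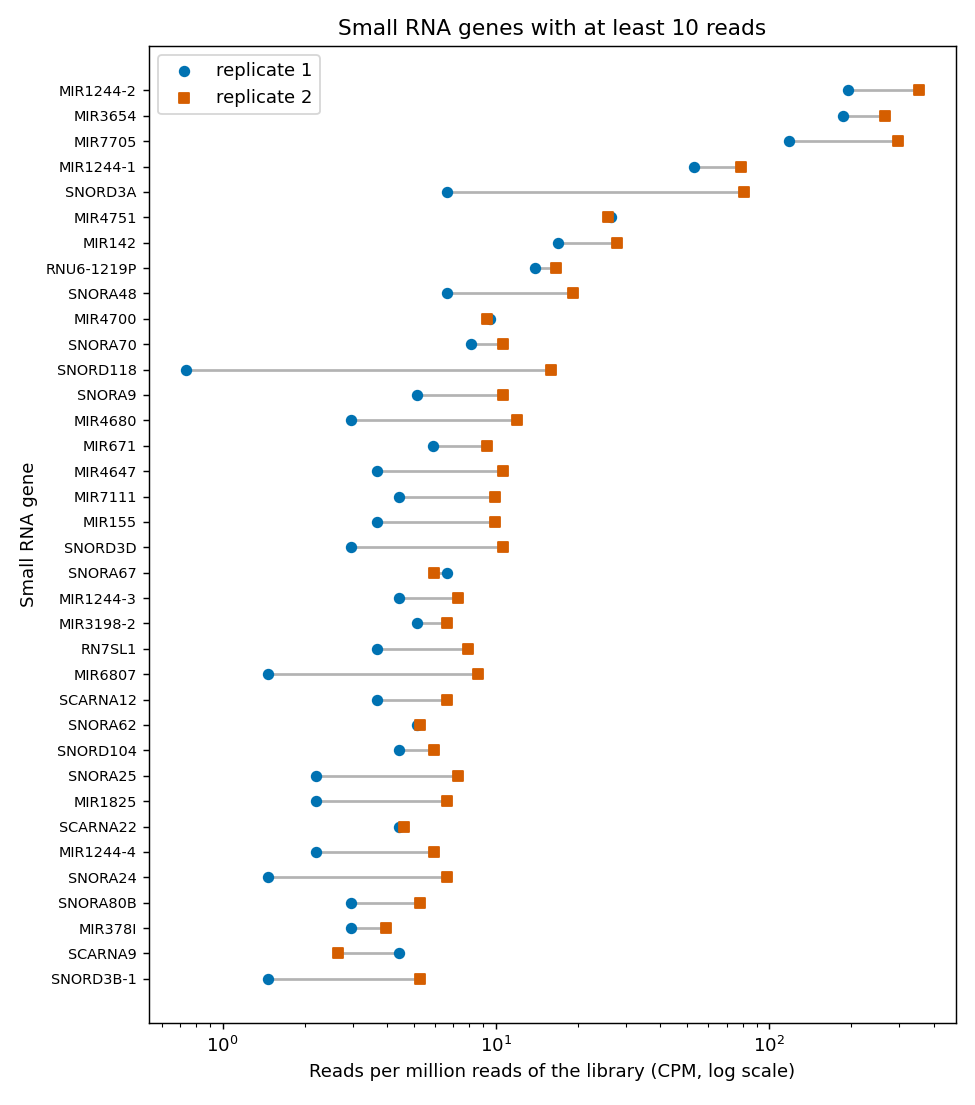
CPM (log axis) of the 36 small RNA genes with at least 10 reads, with a circle for replicate 1, a square for replicate 2 and a line joining them. MIR1244-2, MIR3654 and MIR7705 lie above 100 CPM in both libraries, and 32 of the 36 genes have a positive log2 ratio of replicate 2 to replicate 1.

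Of the 202 genes, 85 (42.1%) had a read in both libraries, where 80.6% of all annotated genes did. A gene with a single read cannot be found in both. Such genes were 83 of the 202 small RNA genes and 2285 of the 16645 annotated genes. Replicate 1 had reads in 128 of them and replicate 2 in 159. Among genes with 2 to 9 reads in total, 49 of 83 small RNA genes (59.0%) and 2783 of 3726 annotated genes (74.7%) were found in both libraries. Within this range the read totals were not matched. All 36 small RNA genes with 10 or more reads were found in both.

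Nearly all reads of the small RNA genes had been assigned to an annotated transcript of the gene and not to a new model. Known models, which match an annotated transcript, held 97.6% of these reads in replicate 1 (96.5 to 98.3%) and 98.6% in replicate 2 (98.1 to 99.0%), a mean of 98.1% ± 0.718 (SD, n = 2). Over all annotated genes the known share was 56.5% and 46.4%. The category thus fell from replicate 1 to replicate 2 over all genes and did not fall among the small RNA genes. Incomplete splice matches (ISM) held 0.177% and 0.517% of the small RNA reads, against 24.05% and 32.3% over all annotated genes. The known models of the small RNA genes were all single exons, whereas ISM models are defined by splice sites. The sets are therefore not alike in structure, and the categories were not compared with those of other single-exon genes.

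The 194 known models were all single exons, from 50 to 1756 bases with a median of 99, and 173 of them were shorter than 200 bases. Models under 200 bases held 93.7% of the small RNA reads in replicate 1 and 89.8% in replicate 2. These are lengths of the models; the table holds no read lengths or read ends, so whether a read covered only the small RNA or extended beyond it is not known from it. The other 107 known single-exon models under 200 bases, which belong to genes of other names, held 0.353% and 0.359% of the libraries. Their share in replicate 2 was 1.02 times that in replicate 1, with 4800 and 5422 reads. For the small RNA genes it was 1.85 times, but over models of all lengths. Their known models under 200 bases had 1057 and 2084 reads.

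**Figure D2:**
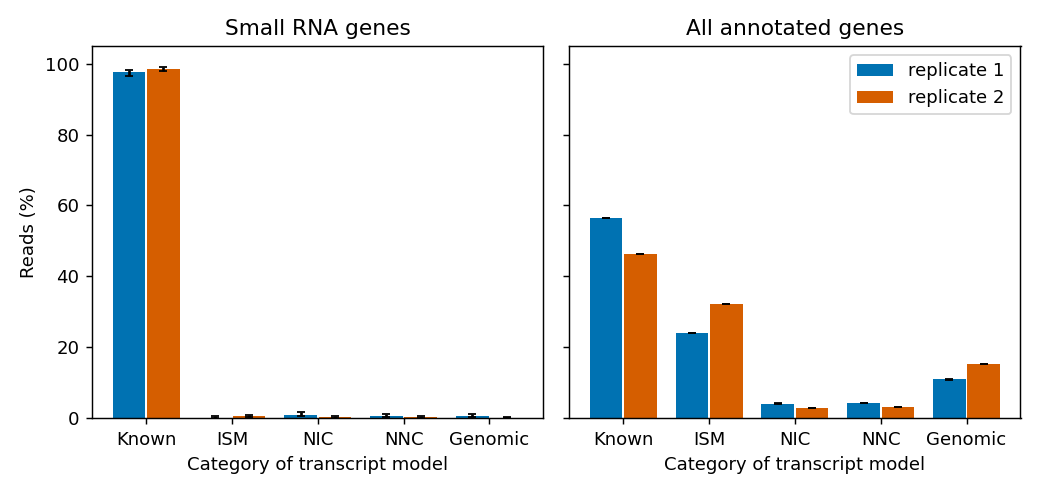
Share of reads (%) by category of transcript model in each library, for the small RNA genes (left) and all annotated genes (right), with bars from 0 and 95% Wilson intervals as error bars. Known models hold 97.6% and 98.6% of the small RNA reads, against 56.5% and 46.4% over all annotated genes. The known models of the small RNA genes are all single exons, so the sets differ in structure.

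One gene made up most of the exception. RNU6-1219P is a pseudogene of the U6 spliceosomal RNA (ENSG00000251952.1, chromosome 22, 29191697 to 29191808, minus strand, 112 bases). It had 19 and 25 reads, and none lay in a known model. Its 8 NIC models, which join annotated splice sites in a new way, were listed with 3 to 6 exons and 948 to 1372 bases and had 11 and 9 reads. Its 8 NNC models, which have an unannotated splice site, had 4 and 5 reads, and its 5 ISM models had 2 and 11 reads. Its 1 genomic model, of 4 exons and 2654 bases, had 2 reads in replicate 1 and 0 in replicate 2. These models are all longer than the annotated RNA, and no larger gene overlaps it on either strand in GENCODE 29. Whether their reads come from this pseudogene was not tested. The other 19 RNU genes had at most 4 reads each.

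Most small RNA genes with reads lay within a larger gene, and most of the reads fell on those inside exons. A gene was placed by its overlap with larger genes of the same strand in GENCODE 29. Of the 202 genes, 92 lay whole in an exon of at least 1 transcript, 10 partly in an exon, 70 in an intron, 7 overlapped only a gene of the opposite strand and 23 overlapped no larger gene. The 92 genes within exons held 63.0% of the small RNA reads in replicate 1 (60.2 to 65.8%) and 60.6% in replicate 2 (58.6 to 62.5%). The 70 intronic genes held 7.89% and 6.89%. The 7 genes on the opposite strand held 23.7% and 23.5%, nearly all of them in MIR1244-2.

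Of the 92 exonic genes, 24 lay in a 3′ UTR, 5 in a coding region and 5 in a 5′ UTR of a protein-coding transcript, and 58 only in non-coding transcripts, which include those with a retained intron. The 3′ UTR genes held 25.2% and 30.03% of the small RNA reads. Most of these reads were in 2 genes, MIR7705 with 14.3% and 19.3% of the small RNA reads and MIR1244-1 with 6.38% and 5.13%. Where several transcripts of the host held the small RNA in an exon, the transcript was chosen in a fixed order. Protein-coding transcripts came first, then those with the small RNA in the last exon, then the shortest distance to the end. The choice favours last exons and short distances. By it, the exon was the last of the chosen transcript for 65 of the 92, and these 65 held 60.5% and 57.8% of the reads. The median distance along the chosen transcript from the small RNA to its end was 452 bases. It was 348 bases for the 23 with at least 10 reads.

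**Figure D3:**
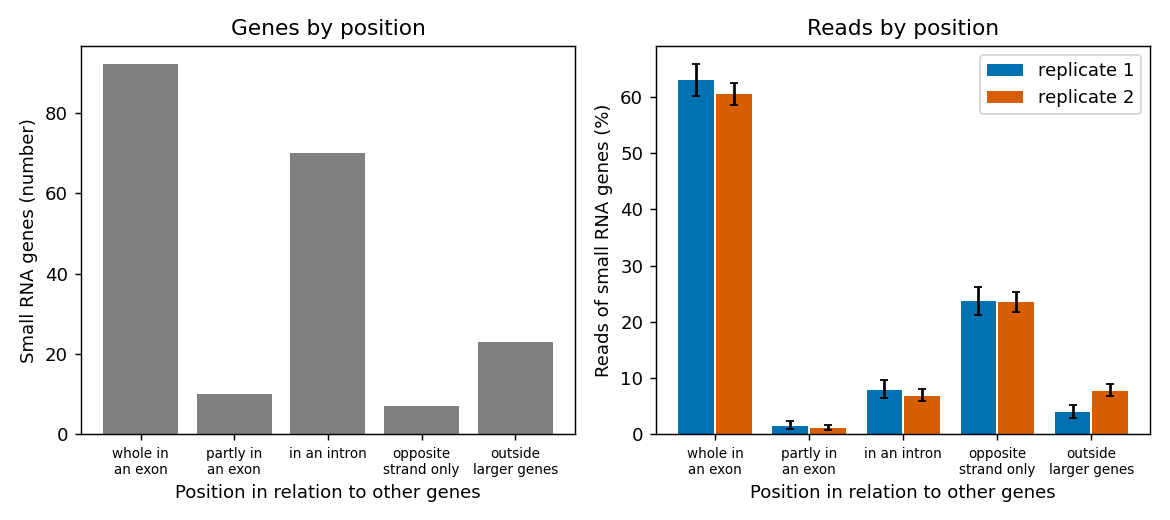
Left, number of small RNA genes by position in relation to other genes; right, share of their reads (%) in each library, with 95% Wilson intervals. The 92 genes whole in an exon hold 63.0% and 60.6% of the reads, and the 70 intronic genes 7.89% and 6.89%.

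Reads of the small RNA genes were compared between the libraries gene by gene. A two-sided exact binomial test was run on each of the 10634 annotated genes with at least 10 reads in both libraries together, with Benjamini-Hochberg adjustment over all of them. It compares these 2 libraries and not conditions, and it accounts for counting error only. Of the 36 small RNA genes tested, 5 (13.9%) passed an adjusted p of 0.05, all higher in replicate 2. Among all genes tested, 5.05% passed in either direction, 2.72% higher and 2.33% lower in replicate 2. Before adjustment, the p of this test was under 0.05 for 15.8% of all genes tested and 33.3% of the small RNA genes tested. The log2 ratio of replicate 2 to replicate 1 was positive for 32 of the 36 genes, with a median of 0.82 and a range from -0.68 to 3.88. Over all genes tested the median was 0.01, and 51.1% of the ratios were positive. The other 166 small RNA genes had fewer than 10 reads. Between the same libraries the known share over all genes fell from 56.5% to 46.4%. With reads of known models only, the median over the small RNA genes was 1.14 and that over all genes -0.26. In that setting 11 of 35 small RNA genes passed, all higher in replicate 2, and 1042 of 5528 of all genes did. The reads of these 35 genes did not change, and only the library totals did. Each of their ratios thus moved up by the same amount.

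**Figure D4:**
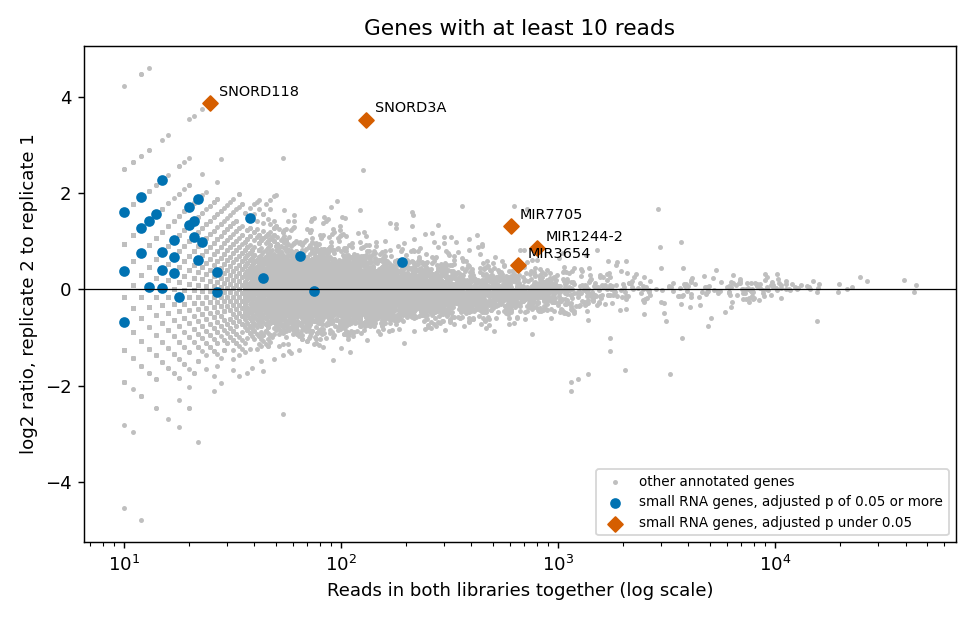
Log2 ratio of replicate 2 to replicate 1 against the reads of both libraries together (log axis) for 10634 genes, with small RNA genes in colour. The 5 genes past the threshold (diamonds) all lie above 0, as do 32 of the 36 small RNA genes.

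MIR1244-2 had the most reads of the small RNA genes (ENSG00000283498.1, chromosome 5, 118974586 to 118974670, plus strand). It had 265 reads, or 195 CPM, in replicate 1 and 534 reads, or 353 CPM, in replicate 2. Replicate 2 was higher, by 0.86 on the log2 scale (95% exact interval 0.64 to 1.08, with an adjusted p of 1.04e-13 by the exact binomial test). Its 85 bases are identical in MIR1244-1, MIR1244-3 and MIR1244-4 and stand whole in the mRNA of PTMA, which encodes prothymosin alpha, a small acidic nuclear protein. In the transcript PTMA-201 of 1212 bases they occupy bases 990 to 1074, in the 3′ UTR and 138 bases before the end. The assignment of reads among these copies is therefore uncertain.

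MIR1244-1 lies in that exon of PTMA (chromosome 2, 231713314 to 231713398) and had 72 and 119 reads. Its log2 ratio of 0.57 (0.14 to 1.02) missed the threshold, with an adjusted p of 0.103 by the exact binomial test. MIR1244-3 had 6 and 11 reads and MIR1244-4 had 3 and 9. MIR1244-2 had the most reads of the 4 copies in both libraries, followed by MIR1244-1. Together they had 346 and 673 reads, while PTMA itself had 2406 and 2125 reads. PTMA was lower in replicate 2 (log2 ratio -0.33, with an adjusted p of 2.97e-12 by the exact binomial test), and the MIR1244-2 ratio had the opposite sign.

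MIR3654 showed the same arrangement with another mRNA (chromosome 7, 133034860 to 133034915, minus strand). It had 254 reads (187 CPM) and 403 reads (267 CPM), higher in replicate 2 by 0.51 on the log2 scale (0.28 to 0.75, with an adjusted p of 0.000505 by the exact binomial test). The gene lies in the processed pseudogene AC008038.1, which had 38 and 92 reads. Its 56 bases also stand whole in the coding region of EEF1G, a subunit of the translation elongation factor complex, at bases 1137 to 1192 of the 1523 bases of EEF1G-201. They also stand whole in AP002990.1, a gene annotated on the same strand over EEF1G, so reads of these genes cannot be told apart with certainty. EEF1G had 3369 and 2889 reads and was lower in replicate 2 (log2 ratio -0.37, with an adjusted p of 6.58e-22 by the exact binomial test). AP002990.1 had 1146 and 2529 reads and was higher (log2 ratio 0.99, with an adjusted p of 1.50e-85 by the same test). Together they had 4515 and 5418 reads, a log2 ratio of 0.11, which was not tested.

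MIR7705 lies in the 3′ UTR of PABPC1, the cytoplasmic poly(A)-binding protein (chromosome 8, 100702968 to 100703024, minus strand), 52 bases before the end of the mRNA. It had 161 reads (118 CPM) and 447 reads (296 CPM), higher in replicate 2 by 1.32 on the log2 scale (1.06 to 1.59, with an adjusted p of 2.21e-23 by the exact binomial test). PABPC1 had 791 and 940 reads, and its log2 ratio (0.10) missed the threshold, with an adjusted p of 0.550 by the exact binomial test. Of the reads given to either gene, MIR7705 held 16.9% in replicate 1 and 32.2% in replicate 2.

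Exact copies were common among the other small RNA genes too. For 110 of the 202 genes, the shortest annotated transcript stood whole in a transcript of another gene, mostly the host at the same place, and these 110 held 88.1% and 85.8% of the small RNA reads. For 19 genes a copy lay elsewhere in the genome, and these held 53.9% and 47.7% of the reads. Without the MIR1244 copies and MIR3654, the classes held 0.0388% and 0.0824% of the libraries, a share 2.12 times as high in replicate 2. That exclusion was chosen after seeing the data.

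Other miRNA genes had far fewer reads. MIR4751 lies in the coding region of ATF5, a stress-responsive transcription factor, and had 36 and 39 reads, close to equal. MIR142, in an exon of the antisense RNA gene AC004687.1 (chromosome 17, 58331232 to 58331318), had 23 and 42 reads. Its host had 10 and 9 reads, and its log2 ratio of 0.70 had an interval that included 0 (-0.05 to 1.52). MIR155, in the last exon of a transcript of its host MIR155HG (chromosome 21, 25573980 to 25574044), had 5 and 15 reads beside 212 and 218 reads of the host. MIR146A, a miRNA of the NF-kB response, had 3 reads and 1 read. It is named here after its values were seen.

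The rest of the miRNA genes with at least 10 reads included MIR4680 in the 3′ UTR of PDCD4, a repressor of translation, with 4 and 18 reads. MIR6807, in an intron of the chromatin corepressor gene TRIM28, had 2 and 13 reads. MIR4700 in the 3′ UTR of UNC119B had 13 and 14 reads. MIR671 in CHPF2 had 8 and 14 reads, MIR4647 in SLC35B2 5 and 16, MIR7111 in an intron of RPL10A 6 and 15, MIR3198-2 in CBX5 7 and 10, and MIR1825 in POFUT1 3 and 10. None of them passed the adjusted threshold in the exact binomial test, against 5.05% of all genes tested.

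The box C/D genes had the largest ratio between the libraries of the 6 classes, and the U3 genes held most of the added reads. U3, from the SNORD3 genes, is the snoRNA needed for early cleavage of the ribosomal RNA precursor. SNORD3A had 9 reads in replicate 1 and 122 in replicate 2 (6.62 and 80.7 CPM), higher in replicate 2 by 3.54 on the log2 scale (2.64 to 4.77, with an adjusted p of 1.28e-21 by the exact binomial test). All of them lay in the known model of 699 bases, which begins with the 217 bases printed above and extends beyond them. SNORD3D had 4 and 16 reads, SNORD3B-1 had 2 and 8, SNORD3B-2 had 0 and 5, and SNORD3C had 0 and 3. A count of 0 allows up to 2.21 CPM in replicate 1. SNORD3B-1 and SNORD3B-2 share an identical annotated transcript, so reads could be split between them. All 5 genes had more reads in replicate 2. Together they had 15 and 154 reads, a CPM 9.24 times higher in replicate 2. The other 34 SNORD genes had 30 and 81 reads, a CPM 2.43 times higher.

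SNORD118 encodes U8, which is needed for processing of the large subunit ribosomal RNAs (chromosome 17, 8173454 to 8173587, minus strand). It had 1 read in replicate 1 and 24 in replicate 2, higher in replicate 2 by 3.88 on the log2 scale (1.82 to 9.80, with an adjusted p of 0.000183 by the exact binomial test). The gene lies in the 3′ UTR of TMEM107, 217 bases before the end of the transcript chosen as above, and TMEM107 had 11 and 20 reads. SNORD104, in an intron of SNHG25, had 6 and 9 reads.

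H/ACA genes had 81 and 163 reads, and none of the 8 tested passed the threshold, against 5.05% of all genes tested. SNORA48 lies in an exon of a non-coding EIF4A1 transcript and had 9 and 29 reads, and its ratio on the log2 scale was 1.48 (0.42 to 2.80, with an adjusted p of 0.0592 by the exact binomial test). EIF4A1, the helicase of translation initiation, had 1119 and 621 reads and was lower in replicate 2 (log2 ratio -1.001, with an adjusted p of 8.47e-43 by the exact binomial test). With AC016876.2, which overlaps it on the same strand, EIF4A1 had 1165 and 754 reads, a log2 ratio of -0.78. SNORA67 lies in the same gene and had 9 reads in each library. SNORA70 in RPL10 had 11 and 16 reads, SNORA62 in RPSA 7 and 8, SNORA9 in SNHG15 7 and 16, and SNORA25 in TAF1D 3 and 11.

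Among the Cajal body RNAs, SCARNA12, partly in an exon of PHB2, had 5 and 10 reads, SCARNA22 in an intron of NSD2 had 6 and 7, and SCARNA9 in an intron of CEP295 had 6 and 4. RN7SL1, the RNA of the signal recognition particle (299 bases), had 5 and 12 reads, and its copy RN7SL2 had 1 and 8. RN7SKP176, a 7SK pseudogene in the 3′ UTR of PLCG2, had 2 and 3 reads. RNU1-125P, a U1 pseudogene in the 3′ UTR of IL32, had 2 reads in each library.

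Small RNA genes and the genes whose exons hold them could be set side by side in 21 pairs with at least 10 reads each. The small RNA had the higher log2 ratio in 18 of the 21 pairs, with a median of 0.70 against -0.01 for the hosts. The exceptions were MIR3654 with AC008038.1, MIR378I with TNFRSF13C and SNORA62 with RPSA. Of the 21 small RNA genes 3 passed the adjusted threshold, and 5 of their 20 different hosts did, EIF4A1 being the host in 2 pairs. Among all genes tested, 5.05% passed. Read depth differed between the sets, and RPSA, with 5030 and 6278 reads, passed at a log2 ratio of 0.17. The difference between a small RNA and its host was not tested. Of the 36 small RNA genes tested, 32 had a positive ratio, against a median of 0.01 over all genes. The count of 18 pairs is therefore not separate from that result.

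**Figure D5:**
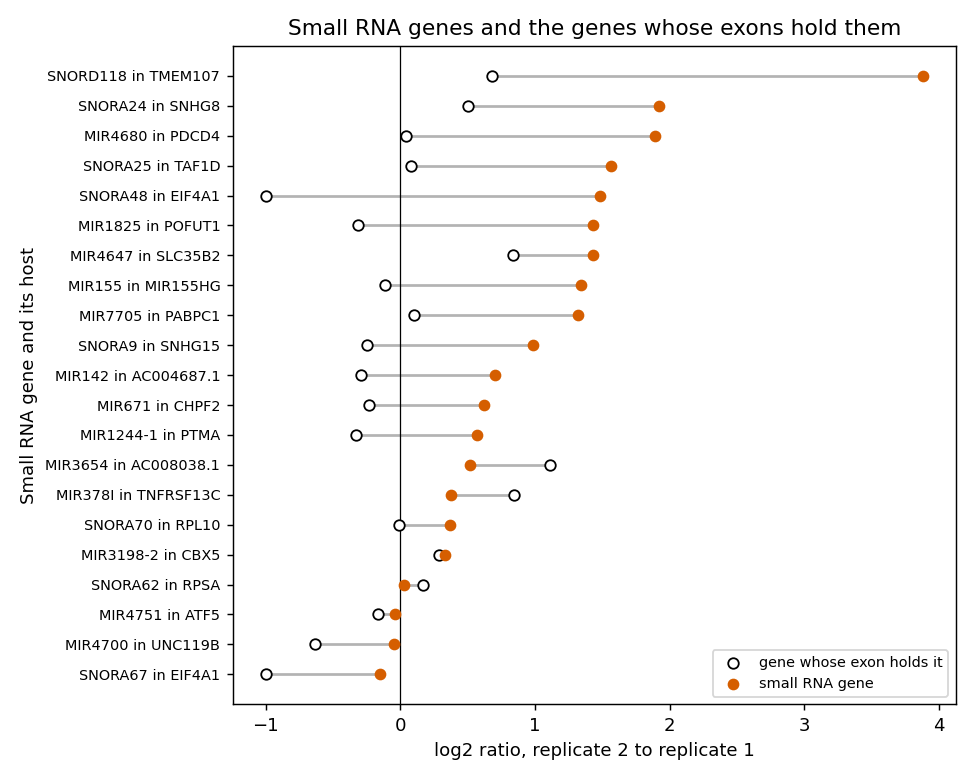
Log2 ratio of replicate 2 to replicate 1 of 21 small RNA genes (filled) and of the gene whose exon holds each (open), joined by a line. The small RNA lies to the right of its host in 18 pairs, and the widest gap is that of SNORD118 and TMEM107.

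Genes of the proteins that bind or process these RNAs had log2 ratios below 0 more often than above it. The list held 34 genes with reads, of which 33 could be tested, and 1 was higher and 4 were lower in replicate 2 in the exact binomial test, with a median log2 ratio of -0.13. These are 3.03% and 12.1% of the 33, against 2.72% and 2.33% of all genes tested. The ratio was below 0 for 23 of the 33, and for 5197 of all 10634 genes tested. The 23 included all 4 genes of the box C/D particles, of which only NOP56 passed. They also included all 7 tested genes of the miRNA pathway, of which none passed. Genes of trimming, tailing and the Cajal body went the other way, with 5 of 7 tested above 0, 2 below and a median of 0.12. FBL, the methyltransferase of box C/D particles, had 692 and 715 reads. NOP56, of the same particles, had 237 and 171 reads and was lower (log2 ratio -0.62, adjusted p of 0.000850). NOP10, of the H/ACA particles, had 244 and 202 reads and was lower (log2 ratio -0.42, adjusted p of 0.0426). In the signal recognition particle, SRP9 was higher with 141 and 289 reads (log2 ratio 0.88, adjusted p of 1.20e-07), and SRP14 was lower with 653 and 532 reads (log2 ratio -0.45, adjusted p of 1.03e-05). The fourth lower gene was MEPCE, the capping enzyme of 7SK, with 93 and 62 reads (log2 ratio -0.73, adjusted p of 0.0363). In the miRNA pathway DROSHA, the nuclease that cuts hairpins out of the primary transcripts, had 46 and 25 reads (adjusted p of 0.0677).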

How the data were processed

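GM12878 RNA was read directly in 2 libraries. Raw counts of reads for each transcript model were deposited by the authors in 1 table, whose name shows the program TALON; minimap2 and hg38 are named in the submitters' processing notes. Versions, read filters and the annotation release are not given in the sources used here. Exon numbers and lengths, other properties of the models, are given per the file headers. Length and exon number of all 23533 known models matched GENCODE release 29, which gave positions, hosts and transcript sequences; mature miRNAs came from RefSeq.

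Counts were summed per annotated gene over all models. Each of the 10634 genes with at least 10 reads over both libraries together was tested for a split of its reads unlike that of the library totals. The exact binomial test was two-sided (scipy 1.17.1), with Benjamini-Hochberg adjustment. It was checked on data simulated with counting error only, so the check does not cover further variation between libraries. With 1 group, edgeR had no contrast to fit; TMM factors (edgeR 4.0.16) and DESeq2 1.42.0 size factors served as alternative scalings. Log2 ratios used 0.5 added reads. Intervals are 95% (Wilson for shares, exact for ratios). The named genes are the 30 with the most reads among those with at least 10, the 3 with the most reads in each of the 6 name groups, and all past 0.05; 1 gene that this rule names is not reported here. The members, lists and rules were chosen with earlier results of these data known.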

Additional observations from a re-analysis of the deposited data

How the results depend on the processing

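No paired analysis was possible because the libraries form 1 group. With either library left out, only the remaining one is read, which says nothing about stability: the share of reads ran from 0.0829% to 0.154%, the genes detected from 128 to 159, the known share from 97.6% to 98.6% and the share in models under 200 bases from 89.8% to 93.7%. The 5 small RNA genes past the threshold stayed past it under TMM and DESeq2 scaling and with minimum counts of 1, 5 and 20 reads. They also stayed past it without genomic models and with known models only. Without genomic models 7 of 36 small RNA genes passed, with MIR1244-1 and SNORA48 added, and 723 of 8758 of all genes did. In the main setting 5 of 36 and 537 of 10634 passed. With known models only, 11 of 35 small RNA genes passed, all higher in replicate 2, and MIR1244-1, MIR142, MIR4680, MIR6807, SNORA48 and SNORD3D were added. Of all genes 1042 passed, although fewer (5528) were tested, and their median ratio shifted by -0.27. The log2 ratios of MIR4751 (0.25), MIR4700 (0.24) and SNORA67 (0.13) then turned positive. Without genomic models those of MIR4751 (0.0338) and MIR4700 (0.0229) did, and none of these passed the threshold. In both settings the reads of the small RNA genes named in this paragraph so far did not change, and only the library totals did. RNU6-1219P differed, because it had no read in a known model and so dropped out with known models only. Without genomic models it lost 2 reads in replicate 1, and its log2 ratio moved from 0.24 to 0.46. TMM, DESeq2 scaling and 1 added read turned none of the 31 named ratios they were run on. The mean share of reads was 0.238% over known models only. Without the MIR1244 copies and MIR3654, a setting chosen after seeing the data, it was 0.0606%. In the latter setting 3 of 31 small RNA genes passed, and 534 of 10629 of all genes did. Requiring 5 reads left 43 genes detected in a library and 24 in both.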
